A study of Mus musculus with 9 samples.

Results

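Type I interferon response genes were followed in regulatory T cells (Treg cells), the suppressive CD4 T cell lineage defined by the transcription factor Foxp3. The genes are 34 antiviral interferon-stimulated genes, chosen by symbol without the interferon-induced GTPases of the Irg and Gbp families, out of 34092 gene rows in the table of read counts, and all 34 passed the filter on low counts. The study compared unstimulated Treg cells sorted from 2 kinds of mice: WT mice of the genotype Foxp3gfp, whose Foxp3 gene carries a green fluorescent reporter, and CNS2KO mice of the genotype Foxp3deltaCNS2-gfp, in which the same reporter allele is missing CNS2, a noncoding stretch within Foxp3. The reporter is thus shared by all samples, and the labels give no treatment, age, sex or strain and do not say whether numbered samples came from separate animals, so the spread that p-values rest on is that among these samples and may be technical only. The labels list 6 WT and 3 CNS2KO samples. The number 407 is given to a sample of each genotype and the count columns of that name are identical, so these were left out and 5 WT libraries (398, 402, 405, 1032 and 1037) were compared with 2 CNS2KO libraries (399 and 408).

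Type I interferons bind the receptor formed by Ifnar1 and Ifnar2, whose kinases Jak1 and Tyk2 phosphorylate STAT proteins. Stat2 and Irf9 belong to the complex that binds the interferon-stimulated response element (ISRE) in the promoters of its target genes. The targets make up an antiviral program of nucleic acid sensors, enzymes that degrade or block foreign RNA, proteins that trap virus particles, and feedback inhibitors such as Usp18. Many of these genes are also expressed at a low level in unstimulated lymphocytes.

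Promoter sequence was not used to choose the genes, and the ISRE was looked for in promoters read from a RefSeq table (GRCm38.p6) that holds the 250 bases before and 50 after each gene's start. Of the 34 genes, 24 have an entry there. Those without an entry are Mx1, Mx2, Parp9, Parp14, Ifi27l2a, Rtp4, Usp18, Zbp1, Dhx58 and Oas2. The core motif searched was GAAANNGAAA on either strand, which reads TTTCNNTTTC on the other strand, with neighbouring matches allowed to overlap. It was found in 12 of the 24 genes (50%) and in 3.99% of the 27025 genes of the table. The gamma-activated site TTCNNNGAA, which reads the same on both strands, was found in 6 of the 24 (25.0%) and in 9.55% of all genes. A match is a description of the letters in this window and not a shown binding site. The stretches below show the cores that lie before the gene start in 9 genes, each with up to 20 bases on either side, read along the gene's strand from 5′ to 3′, with the repeated GAAA or TTTC in capitals.
Isg15, chr4:156200855-156200916, strand -: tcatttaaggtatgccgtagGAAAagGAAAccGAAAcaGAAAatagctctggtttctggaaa
Ifit1, chr19:34640765-34640833, strand +: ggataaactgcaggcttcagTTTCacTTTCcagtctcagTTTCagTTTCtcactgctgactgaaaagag
Ifit3, chr19:34583353-34583436, strand +: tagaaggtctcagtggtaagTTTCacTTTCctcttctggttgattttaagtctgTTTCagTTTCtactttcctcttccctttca
Oas1a, chr5:120907526-120907565, strand -: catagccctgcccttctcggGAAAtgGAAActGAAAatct
Oas3, chr5:120777705-120777754, strand -: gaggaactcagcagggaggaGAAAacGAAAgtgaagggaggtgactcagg
Bst2, chr8:71537567-71537622, strand -: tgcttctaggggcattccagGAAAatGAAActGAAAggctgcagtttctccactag
Rsad2, chr12:26456543-26456592, strand -: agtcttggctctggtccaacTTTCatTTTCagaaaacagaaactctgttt
Trim30a, chr7:104465200-104465249, strand -: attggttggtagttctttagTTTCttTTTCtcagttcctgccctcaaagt
Stat2, chr10:128270256-128270305, strand +: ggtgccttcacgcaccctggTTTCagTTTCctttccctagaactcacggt
Isg15 holds 3 overlapping cores, of which the first begins 78 bases before the start, and Oas1a and Bst2 hold 2 overlapping cores each. Ifit1 and Ifit3, neighbours in one gene cluster, hold 2 separate cores each, and in both genes the inner bases of the cores are ac and then ag. In Ifih1, Ddx58 and Eif2ak2 the only core lies after the start and is not shown. The level in CNS2KO 408 relative to the WT mean, described below, had a median of 1.74-fold over the 12 genes with a core (1.34 to 3.07) and of 1.53-fold over the 12 without one (1.004 to 3.97), with wide overlap.

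The libraries held 16557424 to 21836578 reads on genes, so that 3 reads correspond to 0.142 to 0.182 CPM (reads of a gene per 1000000 reads on genes, with TMM-scaled totals), and every gene of the set had at least 54 reads in every library. The Treg cell markers Foxp3, Il2ra, Ctla4, Ikzf2, Cd4 and Cd3e were read in all 7 libraries, and their summed level lay between 4499 and 5335 CPM in WT and at 4650 and 5063 CPM in CNS2KO 399 and 408. Foxp3 itself ranged from 410.3 to 607 CPM in WT and stood at 464 and 441 CPM in the CNS2KO libraries. The deleted element is noncoding, so these counts are no check of the genotype labels. CPM values are per gene and not per length and are compared between libraries only.

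The first question was whether the interferon response differed between the genotypes. No difference passed: edgeR's quasi-likelihood test with Benjamini-Hochberg adjustment called 0 of the 34 genes, against 0 of 14424 tested genes (0%), and DESeq2 and limma-voom also called 0 of the 34. At an unadjusted p under 0.05, 3 of the 34 were higher in CNS2KO (1.54% of all tested genes were) and 0 were lower (0.964% of all). Fold changes, CNS2KO minus WT, were positive in 32 of 34 genes, against 47.4% of all tested genes, with a median of 0.39 on the log2 scale, against -0.03 for all tested genes. By role, the median was lowest for the transcription factors, at 0.12, and highest for the IFIT genes, at 0.67.

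The positive median came from 1 of the CNS2KO libraries. CNS2KO 408 lay above every WT library in 29 of the 34 genes, where 12.8% of all tested genes did so, and was the highest of the 7 libraries in 28 genes, against 10.3% of all. Its level was 1.66 times the WT mean in the median gene, from 1.004 for Ifi35 to 3.97 for Ifi44. CNS2KO 399 lay above every WT library in 4 genes (20.1% of all tested genes), below every WT library in 13 (19.8% of all) and inside the WT range in 17. Its median level was 0.817 times the WT mean. In 0 genes was CNS2KO 408 lower than all WT libraries (9.48% of all). In bulk samples, more cells with a high level and more RNA per cell cannot be told apart. CNS2KO 408 exceeded CNS2KO 399 in 31 of the 34 genes, by 2.02-fold in the median gene. Without CNS2KO 408 the median log2 fold change was -0.30 with 10 of 34 genes positive, and without CNS2KO 399 it was 0.73 with 34 of 34 positive, in each case with the spread taken from the WT libraries alone. Both CNS2KO libraries lay above every WT library in 3 genes, Oasl1, Isg20 and Ifi44 (3.76% of all tested genes), and below every WT library in 0 (3% of all).

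The WT libraries also differed among themselves. The count columns of WT 1032 and 1037 carry the prefix R, and those of all other libraries used carry YI. What these prefixes stand for was not established. WT 1037 was the highest WT library in 23 of the 34 genes, against 21.3% of all tested genes, with a median of 1.40 times the mean of the other 4 WT libraries, against 0.997 for all tested genes. CNS2KO 408 and WT 1037 were the upper 2 of the 7 libraries in 20 of the 34 genes (58.8%), against 4.02% of all tested genes. The mean log2 CPM over the 34 genes, relative to the WT mean, was -0.05, -0.09, -0.05, -0.17 and 0.36 in WT 398, 402, 405, 1032 and 1037, and -0.17 and 0.87 in CNS2KO 399 and 408. CNS2KO 399 was thus level with the lowest WT library and CNS2KO 408 stood above the highest. The same mean over all tested genes ranged from -0.19 in CNS2KO 399 to 0.14 in CNS2KO 408. The SD of log2 CPM over the 5 WT libraries had a median of 0.369 for the 34 genes, 0.448 for all tested genes and 0.311 for the 8256 genes within the expression range of the set. The pattern over genes and libraries is shown in the heat map by role.

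**Figure D1:**
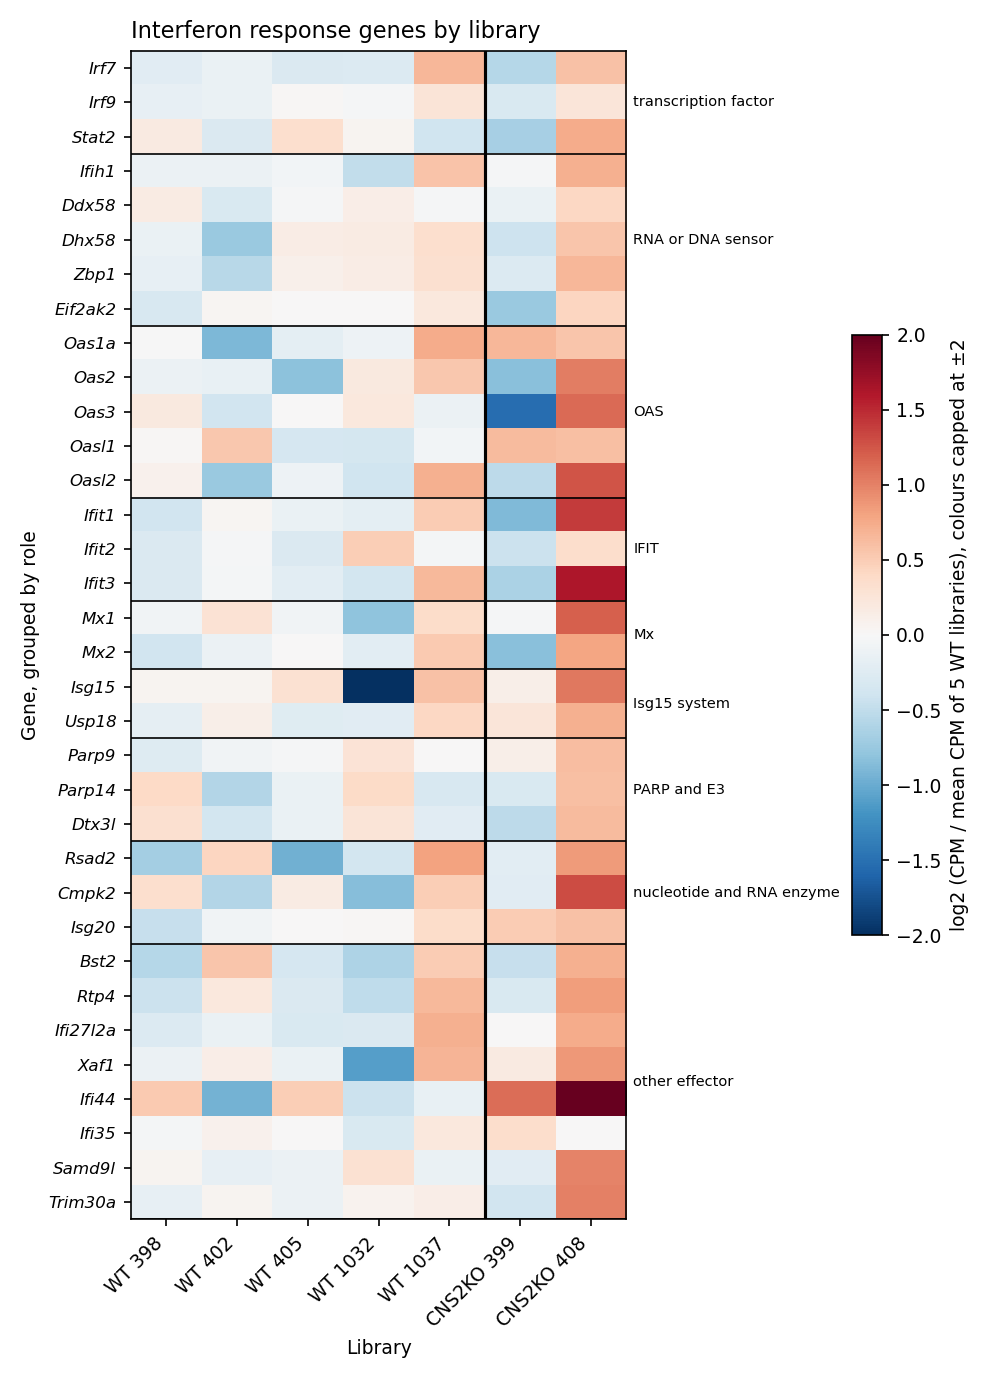
Level of each of the 34 genes (rows, grouped by role) in each of the 7 libraries (columns, WT left and CNS2KO right of the line), as the log2 ratio of TMM-scaled CPM to the mean of the 5 WT libraries. The column of CNS2KO 408 is at or above the WT mean in every row, while CNS2KO 399 is below every WT library in 13 rows and WT 1037 is the highest WT library in 23.

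In what follows, values of the WT libraries stand in the order 398, 402, 405, 1032 and 1037. Some of the genes, among them Ifit3, Trim30a, Oas1a and Ifi27l2a, have near copies in the genome, and how reads were split among the copies is uncertain. For the transcription factors of the pathway the CNS2KO libraries lay apart and the groups overlapped. Irf7, the factor that amplifies interferon transcription and is itself interferon-induced, stood at 111, 118, 107, 107 and 205 CPM in WT and 87.7 and 195 CPM in CNS2KO 399 and 408. The value of WT 1037 was the highest and that of CNS2KO 408 lay close below it, while the other 4 WT libraries lay within 12 CPM of each other. Irf9, the DNA-binding subunit of the complex, stood at 237, 241, 268, 261 and 315 CPM in WT and 214 and 313 CPM in CNS2KO 399 and 408, again with WT 1037 and CNS2KO 408 close together at the top. Stat2, its signalling subunit, stood at 122, 88.3, 136, 112 and 82.2 CPM in WT and 68.5 and 182 CPM in CNS2KO 399 and 408. Here WT 1037 was the lowest WT library and CNS2KO 408 the highest of all. All 3 genes were lower in CNS2KO 399 than in every WT library. The log2 fold changes were 0.12 (SE 0.33) for Irf7, -0.01 (SE 0.19) for Irf9 and 0.21 (SE 0.32) for Stat2. Their 95% intervals were -0.59 to 0.84, -0.42 to 0.41 and -0.50 to 0.92, so that Irf9 had the narrowest.

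The sensors of foreign or misplaced nucleic acid were highest in CNS2KO 408 in 5 of 5 genes, and CNS2KO 399 lay inside the WT range in 4 of them. Ddx58 (RIG-I), which detects RNA with triphosphate ends, stood at 170.4, 123, 150.1, 166 and 149 CPM in WT and 138 and 203 CPM in CNS2KO 399 and 408. Ifih1 (MDA5), which detects long double-stranded RNA, stood at 70.6, 70.9, 73.8, 54.8 and 114 CPM in WT and 75.5 and 125 CPM in CNS2KO 399 and 408. Zbp1, which binds nucleic acid in the Z form and can start cell death, stood at 82.6, 63.1, 99.3, 103 and 115 CPM in WT and 76.4 and 147 CPM in CNS2KO 399 and 408. The WT libraries overlapped CNS2KO 399 in all 3, and only CNS2KO 408 lay outside the WT range. Dhx58 (LGP2), a helicase that modulates Ifih1, was at 78.8 CPM in CNS2KO 408 against a WT range of 32.1 to 67.9 CPM. Eif2ak2 (PKR), the kinase that stops translation on double-stranded RNA, was at 82.7 CPM in CNS2KO 408 and 36.5 CPM in CNS2KO 399, on either side of its WT range of 48.9 to 70.9 CPM. The log2 fold changes of the 5 genes lay between -0.04 (Eif2ak2) and 0.39 (Ifih1).

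Active enzymes of the oligoadenylate synthetase family make the messenger that activates the nuclease RNase L. The order of the libraries differed among the members of the family. Oas3 stood at 41.1, 27.3, 36.0, 41.2 and 32.9 CPM in WT and 12.5 and 78.2 CPM in CNS2KO 399 and 408. Its CNS2KO libraries were the lowest and the highest of all 7, 6.26-fold apart, the widest gap between them among the 34 genes. Oasl2 stood at 20.2, 11.4, 17.6, 14.4 and 31.1 CPM in WT and 13.1 and 45.3 CPM in CNS2KO 399 and 408, with CNS2KO 408 and WT 1037 the upper 2 libraries. Oas1a stood at 19.5, 10.6, 17.3, 18.4 and 32.9 CPM in WT and 31.2 and 29.0 CPM in CNS2KO 399 and 408, and both CNS2KO libraries lay under WT 1037 and above the other WT libraries. Oas2 ranged from 7.56 CPM in CNS2KO 399 to 27.3 CPM in CNS2KO 408. Oasl1, a family member that inhibits translation of Irf7 in mice, stood at 12.7, 18.2, 9.98, 9.77 and 12.05 CPM in WT and 19.5 and 18.998 CPM in CNS2KO 399 and 408. The CNS2KO libraries agreed closely there, above the highest WT library (WT 402) by a narrow margin. The log2 fold change of Oasl1 was 0.62 (SE 0.33), and the exact two-sided permutation p was 0.0952, where 21 assignments of the libraries allow no p below 0.0476.

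The IFIT genes, whose proteins bind RNA with foreign ends and block its translation, lie next to each other in the genome, and 2 of the 3, Ifit1 and Ifit3, were above every WT library in CNS2KO 408. Ifit1 stood at 153, 204, 181, 173 and 283 CPM in WT and 108 and 523 CPM in CNS2KO 399 and 408. Ifit3, the partner that stabilises Ifit1, stood at 68.3, 81.1, 72.2, 64.8 and 131 CPM in WT and 53.9 and 256 CPM in CNS2KO 399 and 408. In both genes CNS2KO 408 stood far above WT 1037, the next library, and CNS2KO 399 below all WT libraries. Ifit2, which lies in the same cluster and has no ISRE core in the window read, stood at 105, 127, 105, 180.0 and 126 CPM in WT and 95.4 and 164 CPM in CNS2KO 399 and 408, and its highest library was WT 1032. Relative to the WT mean, CNS2KO 408 was at 2.63-fold for Ifit1, 3.07-fold for Ifit3 and 1.28-fold for Ifit2. The log2 fold changes between the genotypes were 0.67 (SE 0.43), 0.89 (SE 0.44) and 0.01 (SE 0.26), respectively. For Ifit1 and Ifit3 the CNS2KO libraries lay on either side of the WT range.

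The Mx genes encode dynamin-like GTPases that block viral nucleocapsids. Mx1 stood at 16.4, 21.2, 16.4, 9.93 and 22.4 CPM in WT and 17.1 and 39.7 CPM in CNS2KO 399 and 408, and Mx2 at 8.67, 10.4, 11.4, 9.83 and 16.4 CPM in WT and 6.38 and 19.6 CPM in CNS2KO 399 and 408. CNS2KO 408 was the highest library in both, and CNS2KO 399 lay inside the WT range for Mx1 and below it for Mx2.

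Isg15, the ubiquitin-like modifier, and Usp18, the protease that removes it and restrains the receptor, were higher in CNS2KO 408 than in every WT library. Isg15 stood at 17.2, 17.2, 20.3, 2.92 and 24.9 CPM in WT and 17.8 and 34.4 CPM in CNS2KO 399 and 408. The low value of WT 1032 came from 54 reads, and the log2 fold change of Isg15 had a wide error, at 0.66 (SE 0.57). Usp18 stood at 204, 251, 196, 197 and 306 CPM in WT and 273 and 377 CPM in CNS2KO 399 and 408. Its CNS2KO libraries were both above 4 of the 5 WT libraries, with only WT 1037 between them. Usp18 had a log2 fold change of 0.49 (SE 0.21) with an unadjusted edgeR p of 0.0392 (adjusted p = 1). It kept a positive value when either CNS2KO library was left out, at 0.24 without CNS2KO 408 and 0.71 without CNS2KO 399.

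Parp9 and Dtx3l encode an ADP-ribosyltransferase and the ubiquitin ligase bound to it, lie head to head and overlap in their exons by 367 bases on opposite strands, so that some reads cannot be assigned without strand. Parp14, a further ADP-ribosyltransferase, is a neighbour. Parp9 stood at 182, 208, 214, 262 and 219 CPM in WT and 235 and 333 CPM in CNS2KO 399 and 408. Dtx3l stood at 275, 172, 201, 265 and 189 CPM in WT and 154 and 342 CPM in CNS2KO 399 and 408. Parp14 stood at 173, 87.4, 119, 172 and 105 CPM in WT and 106 and 199 CPM in CNS2KO 399 and 408. CNS2KO 408 was the highest library in all 3, by 1.52 to 1.55 times the WT mean, and WT 1037 was not the highest WT library in any of them. For Dtx3l and Parp14, WT 398 and WT 1032 were the high WT libraries. Parp9 had a log2 fold change of 0.39 (SE 0.19), Dtx3l of 0.17 (SE 0.29) and Parp14 of 0.22 (SE 0.31).

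Among enzymes that act on nucleotides or RNA, Isg20 was the gene on which the CNS2KO libraries agreed. Isg20, an RNA exonuclease, stood at 36.0, 47.1, 49.7, 49.9 and 64.0 CPM in WT and 70.4 and 73.8 CPM in CNS2KO 399 and 408. Both CNS2KO libraries were above the highest WT library, WT 1037. The log2 fold change was 0.55 (SE 0.23), with an unadjusted edgeR p of 0.037 (adjusted p = 1), and an exact two-sided permutation test over samples gave p = 0.0476, the lower limit of 21 assignments. It was 0.51 without CNS2KO 408 and 0.59 without CNS2KO 399. Rsad2 (viperin), which makes a chain-terminating nucleotide, stood at 10.6, 22.8, 8.76, 13.2 and 29.5 CPM in WT and 14.6 and 30.5 CPM in CNS2KO 399 and 408, and its upper values in WT 1037 and CNS2KO 408 differed by 1 CPM. Cmpk2, a mitochondrial nucleotide kinase encoded beside Rsad2, stood at 14.3, 7.53, 12.7, 6.26 and 15.9 CPM in WT and 9.64 and 28.0 CPM in CNS2KO 399 and 408. WT values of Cmpk2 spread over more than the gap between CNS2KO 399 and the WT mean.

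Of the other 8 effectors, CNS2KO 408 was above every WT library in 7 and CNS2KO 399 in 2. Ifi44, a cytoplasmic protein of the response, had the largest fold change of the 34 genes. Ifi44 stood at 9.21, 3.34, 9.01, 4.75 and 5.79 CPM in WT and 13.9 and 25.5 CPM in CNS2KO 399 and 408. Both CNS2KO libraries were above the highest WT library, with 1.83-fold between them. The WT mean of Ifi44 was 6.42 ± 2.61 CPM (SD, n = 5) and the CNS2KO mean 19.7 ± 8.14 CPM (SD, n = 2), a log2 fold change of 1.62 (SE 0.45) with a 95% interval of 0.62 to 2.61. By edgeR's unadjusted p of 0.00408 Ifi44 ranked 16 of 14424 genes (adjusted p = 1), and the exact two-sided permutation p was 0.0476, also at the lower limit. The log2 fold change of Ifi44 was 1.11 without CNS2KO 408 and 1.99 without CNS2KO 399.

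Samd9l, a restriction factor of poxviruses and a growth inhibitor, stood at 433, 375, 385, 519 and 381 CPM in WT and 356 and 829 CPM in CNS2KO 399 and 408. Trim30a, a ubiquitin ligase of the tripartite motif family, stood at 243, 281, 252, 285 and 298 CPM in WT and 208 and 544 CPM in CNS2KO 399 and 408. In both genes CNS2KO 399 lay below the 5 WT libraries and CNS2KO 408 was about 2 times the WT mean. The SD of log2 CPM over the WT libraries was 0.198 for Samd9l and 0.125 for Trim30a, under the median of 0.369 for the 34 genes. WT 1037, high for most of the set, was at 381 CPM for Samd9l, under the WT mean. Ifi27l2a, a small hydrophobic membrane protein, stood at 207, 228, 202, 205 and 410.1 CPM in WT and 253 and 420.3 CPM in CNS2KO 399 and 408, and here WT 1037 nearly equalled CNS2KO 408. Ifi35, which pairs with Nmi, had the smallest ratio of CNS2KO 408 to WT of the 34 genes and stood at 141, 155, 146, 118 and 169 CPM in WT and 186 and 146 CPM in CNS2KO 399 and 408. The highest library for Ifi35 was CNS2KO 399.

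For the remaining effectors CNS2KO 408 was also the highest library. Bst2 (tetherin), which holds budding virus at the cell surface, was at 50.9 CPM in CNS2KO 408 and 22.6 CPM in CNS2KO 399 against a WT range of 20.3 to 45.7 CPM. Rtp4, a receptor transporter protein that also binds viral RNA, was at 245 and 111 CPM against 96.6 to 217 CPM. Xaf1, a promoter of cell death, was at 92.1 and 57.4 CPM against 23.6 to 81.0 CPM. WT 1032 was the lowest WT library for all 3, and CNS2KO 399 lay inside the WT range for each. The log2 fold changes were 0.24, 0.37 and 0.56.

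**Figure D2:**
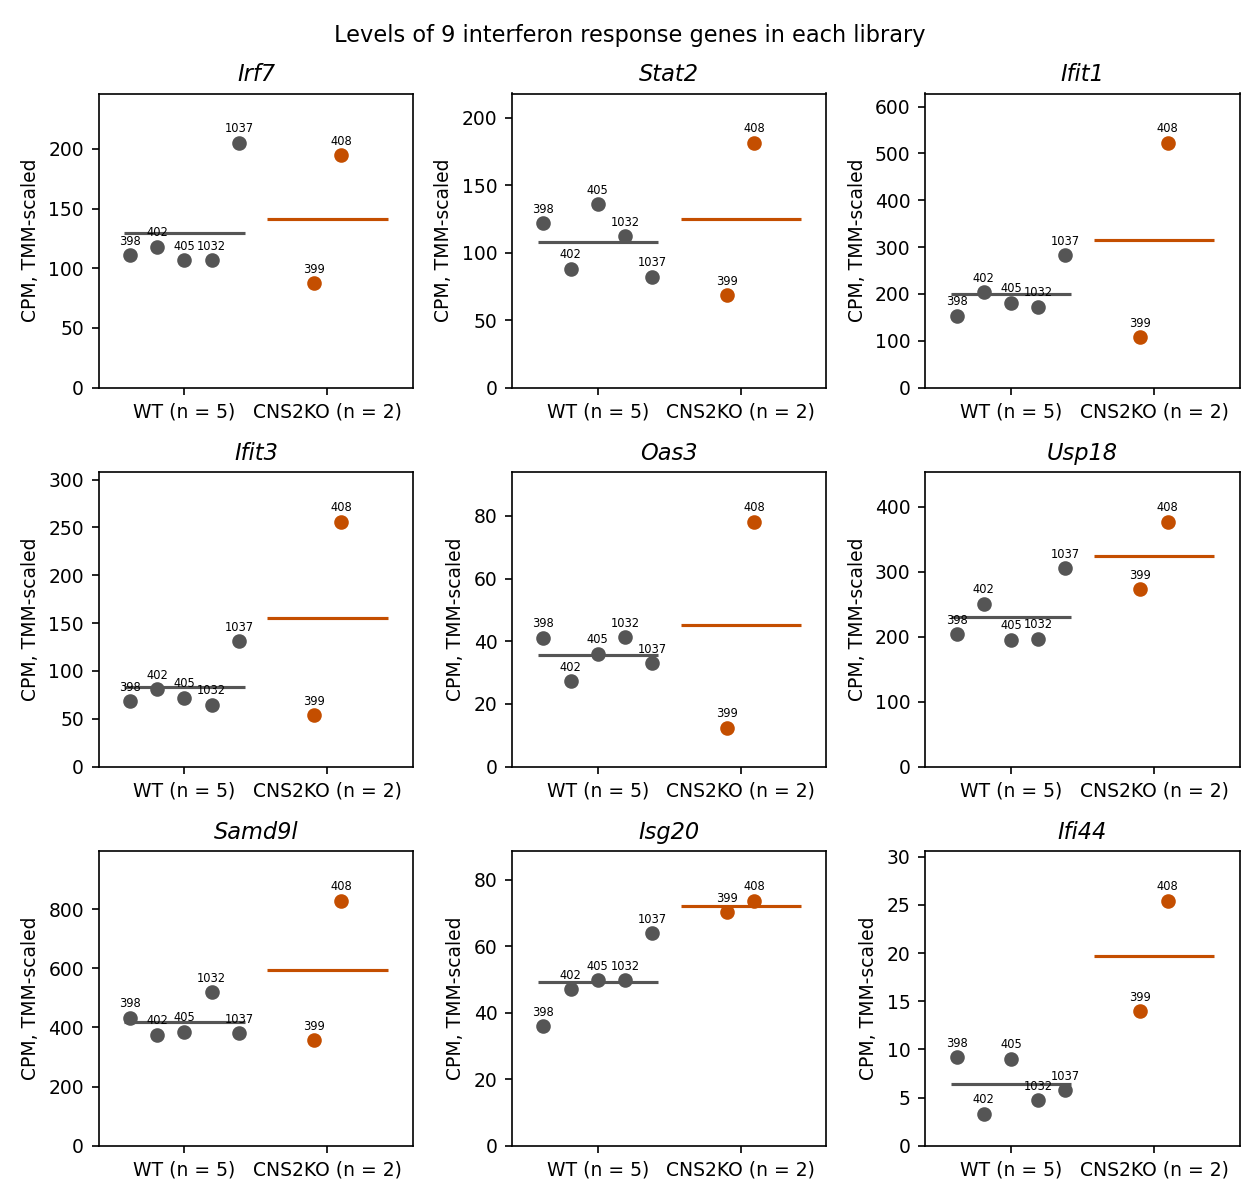
TMM-scaled CPM of 9 genes (y axis, from 0) in the 5 WT and 2 CNS2KO libraries, each point a library marked by its number and each line the group mean. For Irf7, Stat2, Ifit1, Ifit3, Oas3 and Samd9l the CNS2KO libraries lie far apart on either side of the WT mean, while for Isg20 and Ifi44 both lie above every WT library.

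Leaving out 1 CNS2KO library at a time separated the genes by how far their value rested on CNS2KO 408. Without CNS2KO 408, 22 of the 34 genes turned from a positive to a negative value, down to -1.53 for Oas3, -0.89 for Ifit1 and -0.84 for Oas2, where the median of all tested genes was -0.12. The 10 that stayed positive were Ifi44, Oas1a, Oasl1, Isg20, Ifi35, Usp18, Xaf1, Isg15, Parp9 and Ifi27l2a, of which the last stood at 0.01. Without CNS2KO 408 and without CNS2KO 399, in turn, Oasl1 stood at 0.63 and 0.61 and Oas1a at 0.65 and 0.56, so that these genes differed little between the CNS2KO libraries.

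**Figure D3:**
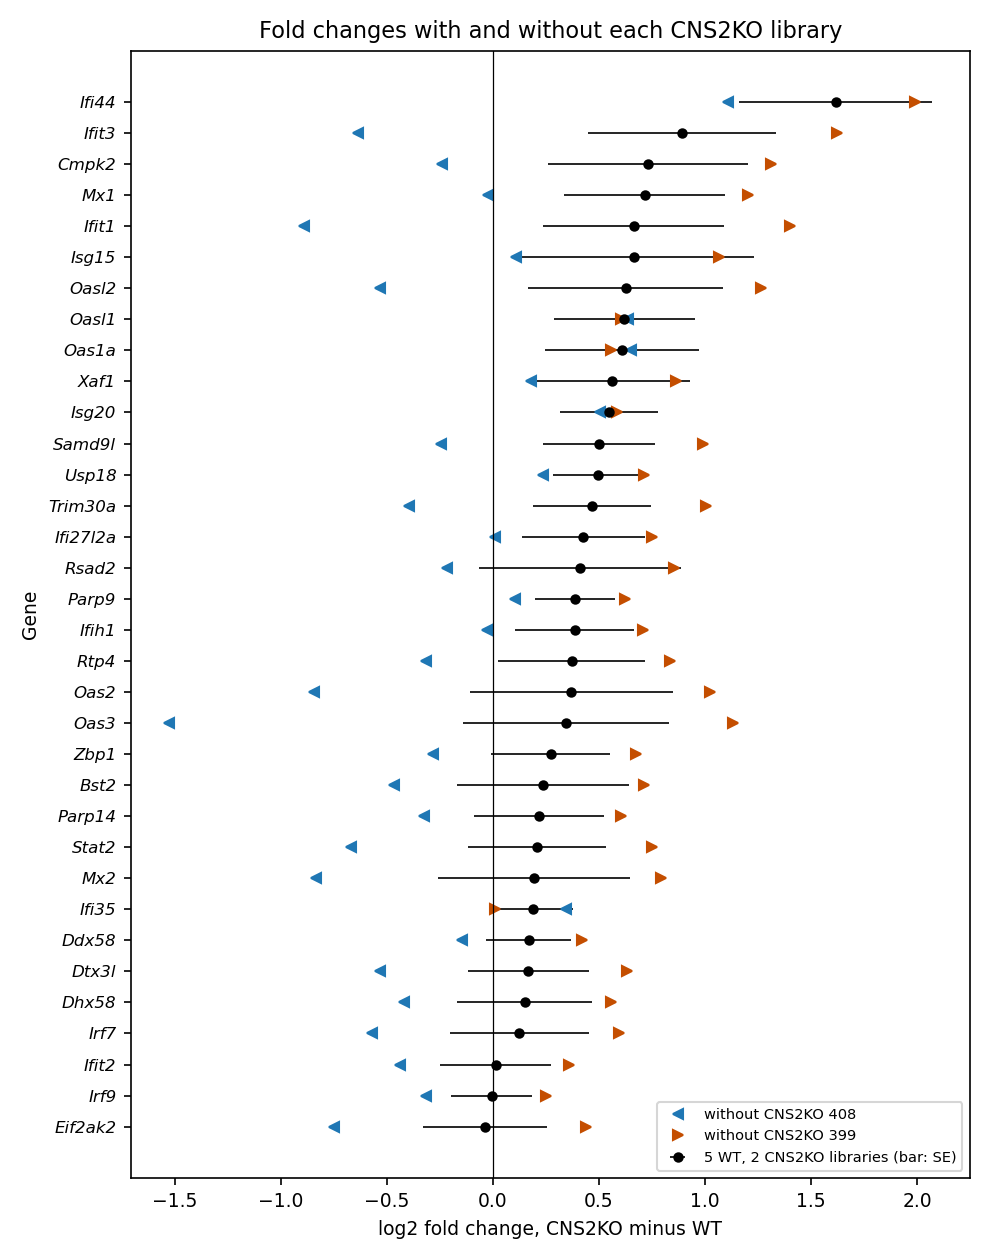
Log2 fold change of each of the 34 genes (CNS2KO minus WT, x axis), ordered by size, from all 7 libraries (black points, bars 1 SE) and with CNS2KO 408 (left-pointing) or CNS2KO 399 (right-pointing) left out. Without CNS2KO 408, 10 genes are positive, and without CNS2KO 399 all 34 are.

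The second question was whether the pathway around these genes moved with them. Type I interferon transcripts were nearly all unread: the 10 listed Ifna genes, Ifnab, Ifnb1 and Ifne had 0 reads in all 7 libraries, which allows up to 0.142 to 0.182 CPM per library. Multiply aligned reads, 14.7 to 19.7% of each column, were not counted for genes, so this bound does not cover them. Ifnk had 29 reads in WT 1032 and 0 or 1 in every other library, and Ifnz had 1 read in CNS2KO 399 and 2 in CNS2KO 408 and none in WT. Ifng, the type II interferon, stood at 1.89 and 2.30 CPM in CNS2KO 399 and 408 inside a WT range of 0.994 to 4.01 CPM. In the lists of receptors and kinases, other STAT and IRF factors, negative regulators and nucleic acid sensing genes, 0 of 42 tested genes were called by edgeR. At an unadjusted edgeR p under 0.05, 1 of the 42 was higher in CNS2KO, the kinase Tbk1 (1.54% of all tested genes were). Lower at that limit were 0 (0.964% of all).

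The receptor chain Ifnar1 averaged 237 ± 22.6 CPM over WT and 215 ± 5.17 CPM over CNS2KO libraries (SD, n = 5 and 2), and the kinase Jak1 1291 ± 249 and 1190.4 ± 232 CPM. Irf1 was at 535 CPM in CNS2KO 399, above its WT range of 356 to 468 CPM, and at 374 CPM in CNS2KO 408. Stat3 had a log2 fold change of -0.04 and Irf2bp1, a corepressor, of -1.56, where WT 1032 was high at 7.67 CPM and CNS2KO 399 had 1 read, with 2.78 CPM in CNS2KO 408. Jak2, a kinase of the receptor for type II interferon, was at 66.6 and 69.2 CPM against a WT range of 46.2 to 56.1 CPM, with a log2 fold change of 0.40 (SE 0.20). Ifngr1, the ligand-binding chain of that receptor, had a log2 fold change of 0.35 (SE 0.21). Its level was 652 CPM in CNS2KO 399, above the WT range of 319 to 486 CPM, and 408 CPM in CNS2KO 408. Tbk1, which activates Irf3, was at 168 and 141 CPM against 105 to 134 CPM, with a log2 fold change of 0.40 (SE 0.18). Among negative regulators the phosphatase Ptpn6 had a log2 fold change of -0.14, the coactivator Nlrc5 of 0.20, Pias1 of -0.09 and Socs3 of 0.39. The median log2 fold changes were 0.02 for receptors and kinases, 0.03 for STAT and IRF factors, 0.19 for negative regulators and -0.11 for sensing genes, where Samhd1 stood at 0.00, Tmem173 (STING) at 0.29 and Ikbke at 0.19.

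Other interferon-inducible genes were also often high in CNS2KO 408. Of 39 tested, 20 lay above every WT library in CNS2KO 408 (12.8% of all tested genes did). In CNS2KO 399, 9 lay above every WT library and 13 below, against 20.1% and 19.8% of all tested genes. None was called by edgeR, and 5 were higher at an unadjusted p under 0.05 (1.54% of all). Their median log2 fold change was 0.12, and -0.15 without CNS2KO 408. Sp100, a nuclear body protein, stood at 0.01, the growth regulator Slfn2 at 0.44 and Ifi47 at 0.48. For Slfn2 and Ifi47 both CNS2KO libraries lay above every WT library. Ifi47 is itself a GTPase but was not among the listed GTPases described next. Of the listed GTPases of the Irg and Gbp families, which respond chiefly to type II interferon, 14 of 14 were positive (median 0.33). In 6 of the 14 both CNS2KO libraries lay above every WT library, as in 3.76% of all tested genes. By edgeR 0 were called, and 5 were higher at an unadjusted p under 0.05 (1.54% of all). Iigp1 stood at 281, 311, 254, 322 and 264 CPM in WT and 416 and 566 CPM in CNS2KO 399 and 408. Gbp7 had a log2 fold change of 0.21, Igtp of 0.32 and Gbp4 of 0.17. The mean log2 CPM of these GTPases relative to WT was 0.54 in CNS2KO 408, 0.25 in CNS2KO 399 and -0.06 in WT 1037, so that the WT library high for the antiviral genes was not high for the GTPases, and CNS2KO 399 was above all WT libraries for the GTPases and not for the antiviral genes. The difference between the lists was not tested.

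**Figure D4:**
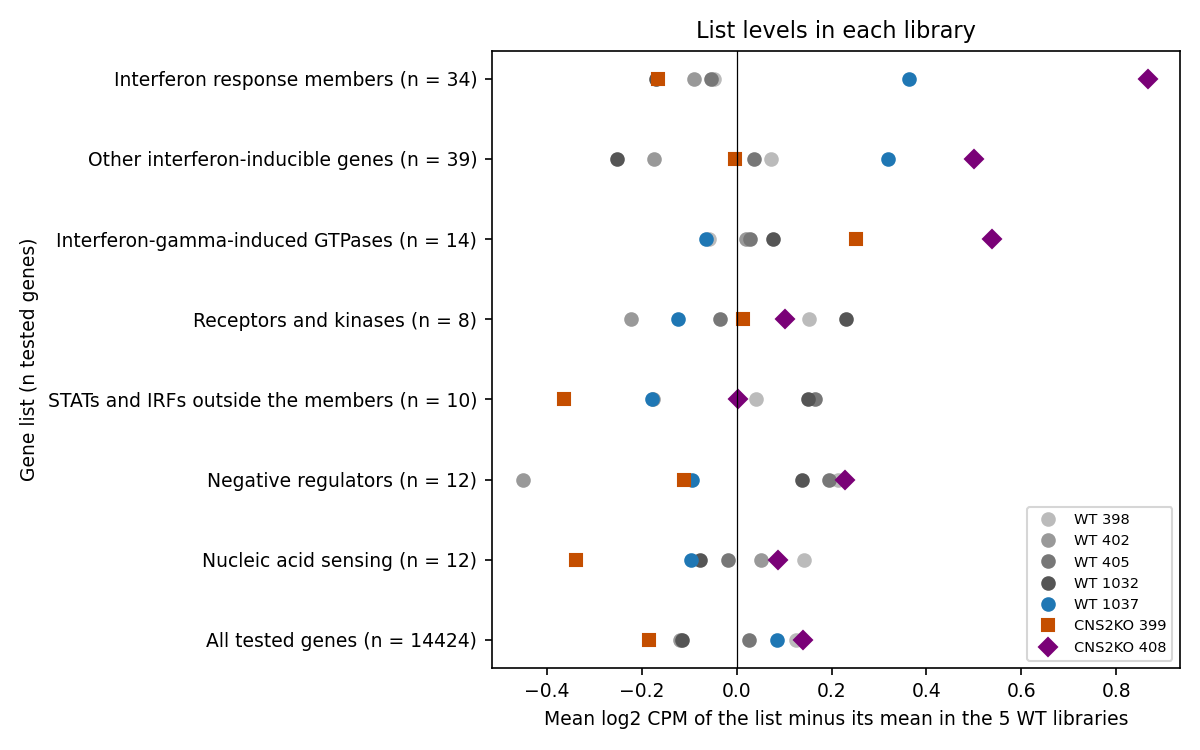
Mean log2 CPM of each gene list (y axis, with the number of tested genes) in each of the 7 libraries, minus the mean of the 5 WT libraries (x axis). For the 34 interferon response genes CNS2KO 408 stands at 0.87 and WT 1037 at 0.36, apart from the other libraries, while for receptors, kinases and the other STAT and IRF factors CNS2KO 408 lies among the WT libraries.

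Markers of other cells and library measures also differed between the libraries. The summed CPM of 9 myeloid marker genes was 99.3 in CNS2KO 408, 86.1 in CNS2KO 399 and 65.5 to 91.8 in WT, with 73.3 in WT 1037. Cst3, Csf1r and Lyz2 were the members of highest level. In CNS2KO 408, 4 of the 7 tested were above every WT library (12.8% of all tested genes). Red blood cell transcripts summed to 31.2 CPM in CNS2KO 408, 156 in CNS2KO 399 and 6.84 to 27.6 in WT, with Hbb-b1, Hba-a1 and Hbb-b2 leading. In CNS2KO 399, 5 of 5 tested were above every WT library (20.1% of all tested genes). The 8 markers of plasmacytoid dendritic cells, which make much type I interferon, summed to 114 CPM in CNS2KO 408 and 129.6 in CNS2KO 399, inside the WT range of 101 to 135. Most of that sum was Ccr9, Pacsin1 and Tcf4, which T cells can express, while Siglech, the defining marker, had 16 reads in CNS2KO 408, 0 in CNS2KO 399 and 0 to 34 in WT, and Klk1 and Cd300c had 0 in all libraries. B cell markers summed to 1123 CPM in CNS2KO 408 and 1421 in CNS2KO 399 against 1214 to 1511 in WT, led by Ighm, Cd74 and Cd79b. Above every WT library were 4 of 7 in CNS2KO 399 (20.1% of all tested genes) and 0 of 7 in CNS2KO 408 (12.8% of all). Markers of CD8 T and NK cells summed to 66.37 CPM in CNS2KO 408 and 78.9 CPM in CNS2KO 399 against 66.44 to 81.6 CPM in WT. CNS2KO 408 thus lay just under the WT range. These markers were led by Cd8b1, Nkg7 and Prf1, with Ncr1 at 0. Their mean log2 CPM relative to WT was 0.81 in CNS2KO 408 and 0.45 in CNS2KO 399, above the highest WT library at 0.27. The leading members did not share the rise of CNS2KO 408. There Cd8b1, Nkg7 and Prf1 had ratios to the WT mean of 0.74, 0.85 and 0.97. For CNS2KO 399 the ratios were 0.64, 1.16 and 1.46. Between the genotypes, Cd8b1, Nkg7 and Prf1 had log2 fold changes of -0.54, 0.01 and 0.28. Of the 6 tested markers of CD8 T and NK cells, 1 was above every WT library in CNS2KO 408 (12.8% of all tested genes) and 3 in CNS2KO 399 (20.1% of all). The member above in both was Gzma, a granule protease, at 0.109, 1.03, 0, 0.0540 and 0.760 CPM in WT and 6.29 and 2.39 CPM in CNS2KO 399 and 408, with a log2 fold change of 3.46 (SE 1.36) and an unadjusted edgeR p of 0.0263. Reads on genes numbered 21427618 in CNS2KO 408 and 21836578 in CNS2KO 399, both more than in any WT library. In WT 1037 they numbered 17754167, inside the WT range. In CNS2KO 408 the share of mitochondrial reads was 3.59%, inside the WT range of 2.69 to 4.75%, of which WT 1037 was the highest. The part of these measures in the levels of the interferon response genes was not tested.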

How the data were processed

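Resting Treg cells were sorted and their total RNA amplified with a SMARTer kit and sequenced on the Proton platform, per the labels' protocols. STAR, BWA, edgeR and mm9 appear, without roles or versions, in the submitters' processing notes. Which annotation, read counter and strand setting were used is not given in the sources used here. Deposited by the authors were raw counts of reads for each gene, log2 values, and 1 signed score per gene of unnamed groups and scale. In each of the tables of counts and log2 values 2 of 9 columns, numbered 407, were not used. The 5 summary rows of the counter (unassigned, ambiguous or multiply aligned reads) were kept out of library sizes; reads on genes were 22.0 to 23.7% of each column.

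The genotypes were compared with edgeR 4.0.16 in R 4.3.3 (filterByExpr, TMM, two-sided quasi-likelihood test, FDR 0.05 over all tested genes, 14424 in number), with each standard error taken as the log2 fold change divided by the square root of F. Log2 CPM used a prior count of 2. Single genes were also tested by exact permutation of the 21 assignments of libraries. The test was also run on simulated counts in which genes varied independently, without the shared differences between libraries seen here. That run is not used as support. Alternatives were relative log expression scaling, DESeq2 1.42.0, limma-voom (limma 3.58.1), 2 other filters, WT numbers of 3 digits only and each library left out. The setting with WT numbers of 3 digits leaves out WT 1032 and WT 1037, whose count columns carry another prefix. Floors of 3 reads cover counting error only. The genes and lists were chosen with earlier results of these data known. By rule, values in every library are given for all genes of role groups of up to 3, for the 3 of highest level in larger groups and for the 5 of smallest p; of the other lists, called genes or the 3 of highest level and, for pathway lists, the 1 of smallest p are named. Siglech, Klk1, Cd300c, Ncr1 and Gzma, and the full values of Oasl1 and Ifi35, were chosen after their values were seen. A gene that the rule names is not reported here. In GENCODE's GRCm38 models, used only for overlaps because the files' build differs, 10 of the 34 genes have exons that overlap those of another gene: Dhx58, Dtx3l, Eif2ak2, Ifi35, Irf9, Oasl1, Parp9, Parp14, Rtp4 and Usp18. Their counts may hold reads of the neighbour.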

Additional observations from a re-analysis of the deposited data

Results flagged for a closer look

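The spread of the 5 WT libraries was checked for 79 quantities, and in 8 of them a single library stood far off. For independent, normally distributed values about 1 in 20 would do so. The quantities are CPM values of genes that are not independent, and include the mean of the 34 genes. The count is thus no test against that rate. Of the 34 interferon response genes 4 did so. WT 1037 was the library that stood apart for Irf7, at 205 CPM against 118 CPM in the next library, for Ifi27l2a, at 410.1 CPM against 228 CPM, and for Ifit3, at 131 CPM against 81.1 CPM. It also stood apart in the mean log2 CPM of the 34 genes relative to the WT mean, at 0.36 against -0.05 in the next library. For Ifit2 it was WT 1032, at 180.0 CPM against 127 CPM. Outside the 34 genes, WT 1032 stood apart for Ifnk, at 1.57 CPM from 29 reads against 0.0585 CPM, and for Irf2bp1, at 7.67 CPM against 3.72 CPM, and WT 1037 for the immunoglobulin gene Ighm, at 1309 CPM against 1056 CPM.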

How the results depend on the processing

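No paired analysis was possible because the genotypes share only the number 407, whose columns were not used. The count of interferon response genes called stayed at 0 under all alternatives run, and that of all tested genes also, apart from 8 calls when genes of low count were kept. At an unadjusted p under 0.05, 3 of the 34 genes and 361 of all tested genes became 10 and 985 with no filter, 6 and 271 with WT numbers of 3 digits only, 17 and 261 without CNS2KO 399, 8 and 384 without WT 1037, 3 and 1676 without CNS2KO 408, and 3 and 614 by limma-voom. The count among the 34 ranged from 1 to 17 with 1 library left out. The median log2 fold change of the 34 genes ranged from -0.30 to 0.73 and their positive values from 10 to 34 with 1 library left out, the lowest without CNS2KO 408. Leaving out CNS2KO 408 and WT 1037 together, chosen after seeing the data, gave -0.24 and 13 positive values. The lead of CNS2KO 408 over every WT library, in 29 genes, ranged from 29 to 33 under other scalings, in the authors' log2 values, with WT numbers of 3 digits only and with each WT library left out, alternatives added after seeing the data. Leaving out WT libraries can only raise this count, so those alternatives could not have lowered it. The share of all tested genes, 12.8% with all WT libraries kept, can likewise only rise there. The means per library moved by less than the WT spread under another prior count, scaling or filter. Signs turned by limma-voom for Oas3 (-0.19) and Ifit2 (-0.0094), with the filter at 10 CPM in 2 libraries for Ifit2 (-0.013), and with WT numbers of 3 digits only for Irf9 (0.084) and Eif2ak2 (0.045). Leaving out each library in turn gave log2 fold changes of Irf7 -0.57 to 0.59, Irf9 -0.31 to 0.25, Stat2 -0.67 to 0.75, Ifih1 -0.029 to 0.71, Ddx58 -0.14 to 0.42 and Dhx58 -0.42 to 0.56. The ranges were also on both sides of 0 for Zbp1 -0.28 to 0.67, Eif2ak2 -0.75 to 0.44, Oas2 -0.84 to 1.02, Oas3 -1.53 to 1.13, Oasl2 -0.53 to 1.26 and Ifit1 -0.89 to 1.40. They further crossed 0 for Ifit2 -0.44 to 0.36, Ifit3 -0.63 to 1.62, Mx1 -0.021 to 1.204, Mx2 -0.83 to 0.79, Parp14 -0.32 to 0.61 and Dtx3l -0.53 to 0.63. The last to cross 0 were Rsad2 -0.22 to 0.85, Cmpk2 -0.24 to 1.31, Bst2 -0.47 to 0.71, Rtp4 -0.31 to 0.84, Samd9l -0.24 to 0.99 and Trim30a -0.40 to 1.01. The cause was not tested.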

Other observations

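Near copies of the 34 genes were read beside them. I830012O16Rik, named Ifit3b in the RefSeq gene table, stood at 16.1, 16.1, 17.9, 15.5 and 19.5 CPM in WT and 1.99 and 66.5 CPM in CNS2KO 399 and 408. Its CNS2KO libraries were the lowest and the highest of the 7, as for Ifit3, and the split of reads between the pair is uncertain. Trim30d stood at 48.6, 56.5, 61.9, 48.3 and 74.8 CPM in WT and 50.5 and 89.4 CPM in CNS2KO 399 and 408, with CNS2KO 408 the highest and WT 1037 next, as for many of the antiviral genes. Oas1b, a gene of the oligoadenylate synthetase family near Oas1a, stood at 13.6, 12.1, 16.4, 9.29 and 16.9 CPM in WT and 11.1 and 15.1 CPM in CNS2KO 399 and 408, with no excess in CNS2KO 408.

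The authors' deposited table of signed values, which names neither groups nor direction, had 14 positive and 20 negative values for the 34 genes (median -0.04). Over all 14424 tested genes it had 7388 positive and 6997 negative values (median 0.01). In the authors' deposited table the values furthest from 0 were -1.04 for Oasl2 and -0.63 for Dhx58, and Ifi44, with the largest fold change here, had -0.03. In the authors' deposited log2 values, the mean of CNS2KO 399 and 408 exceeded that of the 5 WT libraries in 30 of the 34 genes (median difference 0.32), and in 7417 of all 14424 tested genes (median 0.01).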
